A study of Rattus norvegicus with 6 samples.

Results

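Keratins, the transcription factor Tp63 and the 14-3-3 protein gene Sfn were examined in lung RNA of control and PF (pulmonary fibrosis) model rats, as genes that mark basal cells of the airway and the transitional state of injured alveolar epithelium. The members were Krt5, Krt14, Krt15, Krt17 and Tp63, grouped here as basal genes, and Krt7, Krt8, Krt18, Krt19 and Sfn, grouped as simple and transitional genes. They were chosen by gene name, which gave 10 of the 21655 gene names and 28 of the 70376 transcripts in the table of linear RNAs, 18 of the 28 being annotated and the rest assembled from the reads. The lungs came from Sprague-Dawley rats that were 7 weeks old at the start and received 1 intratracheal dose of 7 mg/kg bleomycin (model, n = 3) or saline (control, n = 3), and they were taken on day 28. Each of the 6 libraries held rRNA-depleted total RNA of 1 lung sample, and the study's methods count the libraries by rat, 3 model and 3 control. The dose, age and day were taken from the same methods and the groups from the labels.

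Keratins are the intermediate filament proteins of epithelial cells and assemble as pairs of a type I and a type II chain. Basal cells, the stem cells of the conducting airway, typically carry the pair of Krt5 and Krt14 and depend on the transcription factor p63, whereas simple epithelia carry Krt8 with Krt18, and often Krt7 and Krt19. After lung injury, type 2 alveolar cells on the way to type 1 cells are known to pass through a state with high Krt8, and Sfn is among the genes described in such cells.

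For both basal genes found in the RefSeq promoter table (GRCr8), the 100 bases before the RefSeq start site are shown. Any part of these sequences in the levels of the genes was not tested. Krt5 lies at chr7:134730570-134730669 on the minus strand and Tp63 at chr11:88554178-88554277 on the minus strand. Capitals mark ATAAAA, a motif chosen after the Krt5 sequence was seen.
Krt5: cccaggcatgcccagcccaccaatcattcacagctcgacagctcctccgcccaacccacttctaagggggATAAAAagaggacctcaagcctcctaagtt
Tp63: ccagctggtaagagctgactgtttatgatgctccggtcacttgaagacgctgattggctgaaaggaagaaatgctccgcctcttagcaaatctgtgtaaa
ATAAAA was found in the window of Krt5 and not in that of Tp63 when both strands were searched, and 7.52% of 33469 rat promoter windows of the same length held it. TATAAA was found in neither window and in 5.78% of all windows. A match is a match of letters only. Of the other members, Krt8, Krt18 and Sfn were also in the promoter table and Krt7, Krt14, Krt15, Krt17 and Krt19 were not matched.

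Expression is given as FPKM, the fragments per kilobase of transcript, scaled to the mapped fragments of a library, summed over the transcripts of a gene. The deposited coverage corresponded to between 35778631 and 41112682 reads per library, estimated as coverage times transcript length over a read length of 150 bases. The RNA carried the markers of lung epithelium, since Sftpc, the surfactant protein of type 2 cells, lay between 2410 and 4146 FPKM and Ager, a type 1 cell gene, between 273 and 412 FPKM. Model 3 stood apart for a number of genes, though over all genes the margin depended on the limit. In it 0.907% of 20834 genes exceeded 5 times the highest of the other 5 samples, a limit chosen after the values were seen. In each other library this share was between 0.490% and 0.720%. At a limit of 2 times the share was 1.80% in model 3 and 1.64% in control 3, the next highest. Of the members, 4 exceeded either limit in model 3 and 0 in any other library. The difference of each basal gene is therefore given with and without model 3.

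The 10 genes spanned a wide range of levels. Averaged over the 6 samples, Krt19 had the highest level at 47.1 FPKM, followed by Krt8 at 26.9, Krt7 at 22.3, Krt18 at 12.1 and Sfn at 1.48 FPKM. The basal genes were far lower, with Krt14 at 0.341, Krt15 at 0.307, Krt17 at 0.134, Krt5 at 0.126 and Tp63 at 0.0273 FPKM. The lowest sample of Krt19 (37.3 FPKM) lay above the highest of Krt8 (34.1 FPKM), and the lowest of Krt18 (9.89 FPKM) above the highest of Sfn (2.10 FPKM). Neighbours within the order Krt8, Krt7 and Krt18 overlapped between samples, as did all neighbours among the basal genes. Sfn, with a lowest sample of 0.994 FPKM, overlapped with Krt15 through its value of 1.24 FPKM in model 3.

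**Figure D1:**
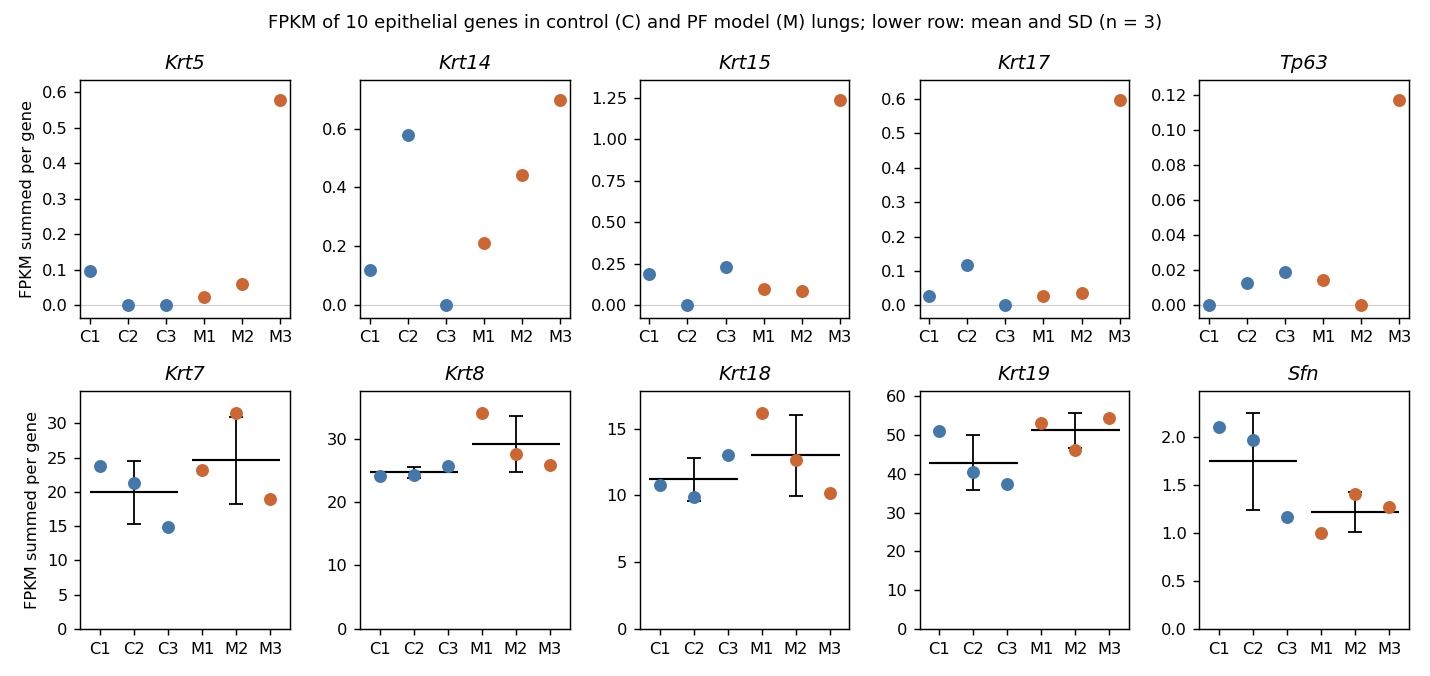
FPKM summed per gene (vertical axis, from 0 in the lower row, separate scale for each gene) in control samples C1 to C3 (blue) and model samples M1 to M3 (orange), with lines and bars for the mean and SD of 3 samples in the lower row. The 5 basal genes in the upper row were highest in M3, and only Krt8 had all model samples above all control samples.

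None of the 10 genes passed the call rule, a limma p of at most 0.05 with at least a 2-fold ratio of the group mean FPKM (absolute log2 ratio of at least 1), and 0 of the 10 had an unadjusted p of at most 0.05. Over all 19645 genes tested with limma, 1.52% passed that rule, 4.91% had an unadjusted p of at most 0.05 and 0.0102% had a Benjamini-Hochberg adjusted p below 0.05. The adjusted p of the members lay between 0.933 and 0.944. Differences between groups are given as model minus control on the log2(FPKM + 1) scale, which understates the change of low genes. Of the members, 9 had a higher mean in the model samples and 1, Sfn, a lower one, whereas 47.5% of all tested genes were higher. The median difference of the members was 0.22, against -0.01 over all genes tested. Without model 3, 6 of the members were higher and 4 lower, with a median difference of 0.07, against 45.6% higher and a median of -0.01 over all genes tested. Control and model samples did not overlap for 1 of the 10 members, Krt8, while 10.7% of all tested genes showed no overlap, so that this count was near the background. In bulk tissue, fewer cells of a type and less RNA per cell cannot be told apart.

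Krt5, the type II keratin of basal cells, was listed at 0.0962, 0 and 0 FPKM in the control samples and at 0.0227, 0.0593 and 0.577 FPKM in the model samples. Model 3 was 6.005 times the highest of the other samples, and it held an estimated 51.7 reads, while no other library held more than 3.60. The groups overlapped, since control 1 was higher than models 1 and 2. The value of control 1 came wholly from ENSRNOT00000080010, a transcript described below. The difference was 0.21 (SE 0.17, 95% interval from -0.19 to 0.62, limma adjusted p = 0.933) with all samples and 0.01 (SE 0.06, 95% interval from -0.15 to 0.17, limma adjusted p = 0.999) without model 3.

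Krt14, the type I partner of Krt5, was listed at 0.121, 0.578 and 0 FPKM in the control samples and at 0.210, 0.441 and 0.696 FPKM in the model samples. Control 2 and model 3 were the highest, at a ratio of 1.21 between them, and the groups overlapped. The difference was 0.25 (SE 0.20, 95% interval from -0.23 to 0.72) with all samples and 0.13 (SE 0.21, 95% interval from -0.40 to 0.66) without model 3. Without control 2, Krt14 passed the call rule, with a difference of 0.44 (SE 0.15, 95% interval from 0.05 to 0.83, limma adjusted p = 0.946). It was the only member that did so when any 1 sample was left out. The values of control 1 and of models 1 and 2 came wholly from ENSRNOT00000083895, a transcript described below that spans Krt19.

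Krt15, a type I keratin of basal cells, was listed at 0.191, 0 and 0.228 FPKM in the control samples and at 0.0972, 0.0872 and 1.24 FPKM in the model samples. Model 3 was 5.43 times the highest of the other samples, at an estimated 94.3 reads, and the remaining model samples were lower than controls 1 and 3. The difference was 0.29 (SE 0.29, 95% interval from -0.40 to 0.98), and it turned to -0.06 (SE 0.10, 95% interval from -0.31 to 0.20) without model 3.

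Krt17, a keratin of basal cells that is also induced in injured epithelia, was listed at 0.0273, 0.118 and 0 FPKM in the control samples and at 0.0261, 0.0364 and 0.597 FPKM in the model samples. Model 3 was 5.04 times the next highest sample, control 2. The difference of 0.19 (SE 0.18, 95% interval from -0.23 to 0.61) turned to -0.02 (SE 0.07, 95% interval from -0.19 to 0.14) without model 3.

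Tp63, the gene of the transcription factor p63, was listed at 0, 0.0129 and 0.0193 FPKM in the control samples and at 0.0142, 0 and 0.117 FPKM in the model samples. Model 3, with an estimated 28.6 reads, was 6.08 times the highest of the others, none of which held more than 5.01 reads. The difference of 0.04 (SE 0.05, 95% interval from -0.09 to 0.18) turned to -0.01 (SE 0.05, 95% interval from -0.12 to 0.11) without model 3.

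All 5 basal genes were thus highest in the same library. Their FPKM summed to 0.435, 0.709 and 0.247 in the control samples and to 0.370, 0.624 and 3.22 in the model samples, so that models 1 and 2 lay within the range of the controls. Even in model 3 the basal genes made up 2.83% of the summed FPKM of all 10 members. The log2 ratio of the group mean FPKM was 2.78 for Krt5, 0.95 for Krt14, 1.76 for Krt15, 2.18 for Krt17 and 2.03 for Tp63 with all samples. Without model 3 it was 0.36, 0.49, -0.60, -0.64 and -0.60 for the same genes in that order.

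**Figure D2:**
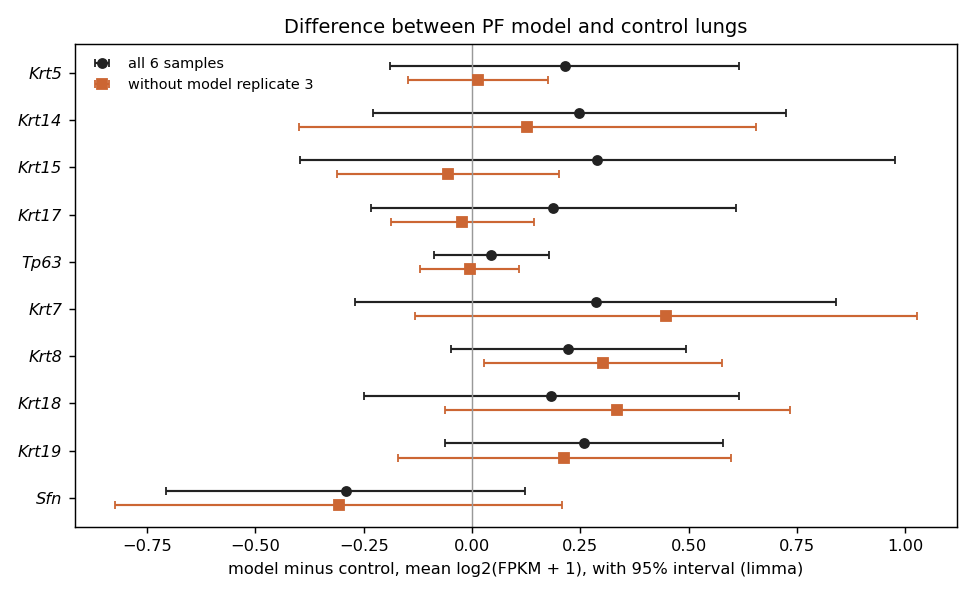
Model minus control difference in mean log2(FPKM + 1) (horizontal axis) of each gene with its 95% interval from limma, with all 6 samples (black circles) and without model replicate 3 (orange squares). All intervals included 0 with 6 samples, and the differences of Krt15, Krt17 and Tp63 turned below 0 without model replicate 3.

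Reads of neighbouring keratin genes could have been shared among the basal genes, since several annotated transcripts span other genes on the same strand. The files' coordinates, for which no genome build was given in the sources used here, place Krt14, Krt15, Krt17 and Krt19 in the type I keratin cluster of chromosome 10 and Krt5, Krt7, Krt8 and Krt18 in the cluster of chromosome 7. Krt14 transcript ENSRNOT00000083895 (chr10:88055823-88122233, 6 exons) runs across the whole of Krt19, the most abundant member. It was listed at 0.121, 0.543 and 0 FPKM in the control samples and at 0.210, 0.441 and 0.0122 FPKM in the model samples, so that it held nearly all Krt14 FPKM outside model 3.

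The other Krt14 transcript, ENSRNOT00000005285 (chr10:88118175-88122233, 8 exons), spans no other gene. It was listed at 0, 0.0349 and 0 FPKM in the control samples and at 0, 0 and 0.684 FPKM in the model samples, and with 2 samples above 0 it was not tested. Krt17 showed the same layout (its transcripts and those of Krt5 are named here after their values were seen). Its transcript confined to the gene, ENSRNOT00000005382, was listed at 0.497 FPKM in model 3 and at 0 in the other 5 samples. For Krt5, the transcript ENSRNOT00000083956, which spans Krt1, Krt2 and Krt73, was at 0 in all control samples and at 0.0227, 0.0256 and 0.447 FPKM in the model samples. It was not past the call rule (difference 0.20, SE 0.14, limma adjusted p = 0.945), and without model 3 it had too few samples above 0 for a test. ENSRNOT00000011644, a Krt5 transcript of 8 exons that spans no other gene, was listed at 0.0549 FPKM (an estimated 3.93 reads) in model 3 and at 0 elsewhere. ENSRNOT00000080010 is 1 exon of 755 bases at chr7:143316920-143317674 and overlaps LOC102551453. It had 0.0962 FPKM in control 1, 0.0337 in model 2, 0.0755 in model 3 and 0 elsewhere.

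Leaving the spanning transcripts out, an alternative added once the values were known, left Krt5 at 0.0962, 0 and 0 FPKM in the control samples and at 0, 0.0337 and 0.130 FPKM in the model samples. Model 3 remained the highest library for Krt5 in that sum, but its excess over control 1 was small. The value of control 1 in that sum came from ENSRNOT00000080010 alone. The difference of Krt5 was then 0.03 (SE 0.07, 95% interval from -0.13 to 0.19), with no fit made that also left out model 3, and Krt14 and Krt17 no longer had the 3 samples above 0 needed for a test. Krt15 and Tp63 have no spanning transcript, and the single Krt15 transcript, ENSRNOT00000019037, carried the gene's values given above.

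Other genes of basal cells did not all follow model 3. Of a list of 10, Dlk2 was not analysed here, 8 were tested with limma, 5 were higher, 3 were lower and none was called, with a median difference of 0.05 and a range from -0.30 to 0.21. Without model 3, 4 were higher and 4 lower, with a median of 0.01. The adhesion molecule gene Bcam, with the highest level, had 107, 98.9 and 79.6 FPKM in the control samples and 122, 94.5 and 114 FPKM in the model samples. Dst, the gene of a plakin that links keratins to hemidesmosomes, lay between 38.5 and 46.0 FPKM in all samples. In bulk tissue these levels, far above those of the basal members, cannot be assigned to basal cells. Model 3 was the highest library for 3 of the 9 genes in the table. Among these, chosen after their values were seen, the aquaporin gene Aqp3 was listed at 0.0774 FPKM in control 2, at 0.353 FPKM in model 3 and at 0 elsewhere. Ngfr, a nerve growth factor receptor used to mark basal cells, was listed at 0.451, 0.650 and 0.517 FPKM in the control samples and at 0.188, 0.283 and 0.765 FPKM in the model samples.

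Genes of airway secretory cells moved with model 3 as well. For 4 of the 6 secretory markers model 3 was the highest library and exceeded each other library at least 2-fold. Named after their values were seen, these were Bpifa1, a secreted protein of the upper airway, with 95.8 FPKM in model 3 and at most 0.135 elsewhere, and Scgb3a1, a secretoglobin, with 47.0 FPKM in model 3 and at most 6.45 elsewhere. The mucin gene Muc5b had 22.2 FPKM in model 3 and at most 3.68 elsewhere, and Cyp2f4, a club cell cytochrome P450, had 33.8 FPKM and at most 16.7 elsewhere.

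The most abundant secretory markers did not share this. Scgb1a1, the club cell secretoglobin, had 4514, 5648 and 7693 FPKM in the control samples and 4065, 4689 and 6141 FPKM in the model samples. Scgb3a2 was highest in control 3, at 214 FPKM, with 191 FPKM in model 3. The summed level of the 6 secretory markers lay between 4630 and 7934 FPKM in the control samples and between 4176 and 6530 FPKM in the model samples, and none of the 5 that were tested was called. Of these 5, 3 were higher and 2 lower with all samples, and all 5 were lower without model 3. The 5 ciliated cell markers in the table summed to between 19.0 and 32.8 FPKM in the control samples and between 16.1 and 27.7 FPKM in the model samples. Of these, 1 was higher and 4 lower, or all 5 lower without model 3. Dnai1, a dynein gene of motile cilia, was at 8.39 FPKM in model 3 and 10.1 FPKM in control 3. Model 3 was the highest library for 2 of the 5, named after their values were seen. These were Dnah5 (5.85 FPKM, at most 5.24 elsewhere) and Tekt1 (4.55 FPKM, at most 4.27 elsewhere). Foxj1 was not analysed here.

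The squamous and thymic epithelial markers that could be examined were low in all samples, model 3 included. The squamous marker Sbsn was at 0.239 FPKM there and between 0.347 and 0.451 FPKM elsewhere, and it was the only 1 of 6 squamous markers in the table. The thymic epithelial marker Psmb11, the only 1 of 4 in the table, was listed at 0 in model 3 and at no more than 0.0993 FPKM elsewhere. In a cartilage list added after the data were seen, 5 of 7 genes were in the table, none was called, and model 3 was the highest library for 2, Col2a1 and Acan. These defining markers were near 0 throughout, Col2a1 with 0.0281 FPKM in model 3 and at most 0.00950 elsewhere and Acan with 0.0570 FPKM in model 3 and at most 0.0187 elsewhere. Comp, the most abundant of the list, had 3.48 FPKM in model 3 and between 3.38 and 4.16 FPKM elsewhere. The part of a differing amount of airway tissue in the values of the basal genes was not tested.

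**Figure D3:**
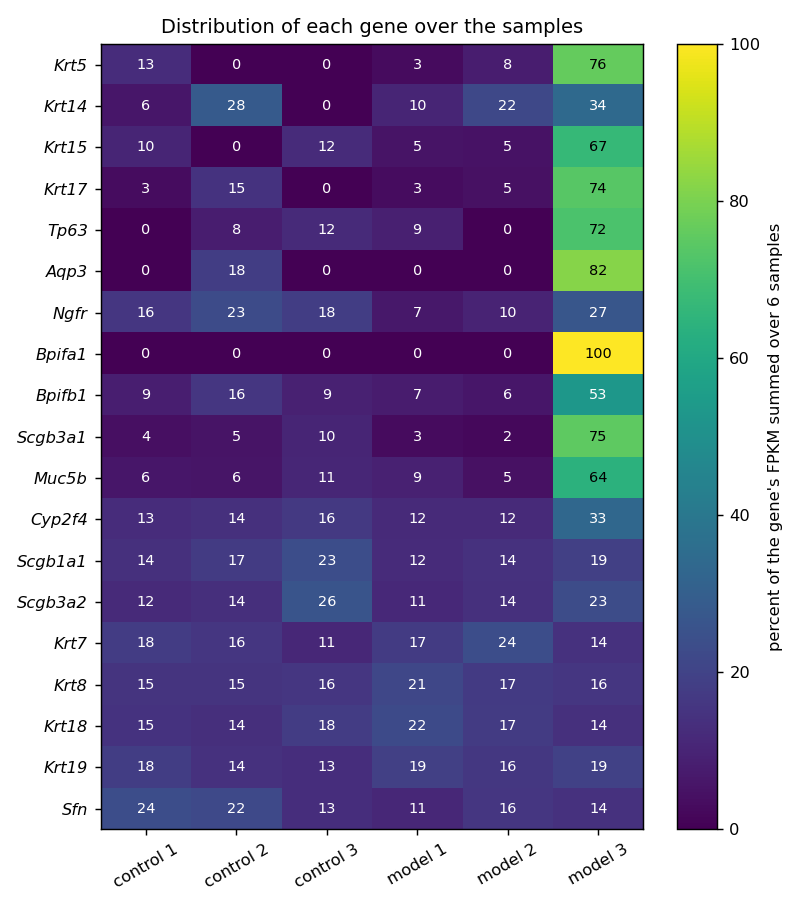
Percent of each gene's FPKM, summed over the 6 samples, that fell in each sample (colour and number, rows are genes and columns samples), where an even spread would give every sample the same share. Model 3 held 76.4% for Krt5, 74.1% for Krt17, 71.7% for Tp63, 67.2% for Krt15 and 34.0% for Krt14, and 75.1% for the secretory gene Scgb3a1 but 18.8% for Scgb1a1.

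Krt8, the type II keratin of simple epithelia and of the transitional alveolar state, had 24.1, 24.2 and 25.7 FPKM in the control samples and 34.1, 27.5 and 25.8 FPKM in the model samples. Every model sample was above every control sample, but the gap between control 3 and model 3 was small beside the spread of the model samples. The means were 24.7 ± 0.869 FPKM in control and 29.1 ± 4.35 FPKM in model samples (SD, n = 3). The difference was 0.22 (SE 0.11, 95% interval from -0.05 to 0.49, limma adjusted p = 0.933). These values of Krt8, and its ratio to Krt18 below, include MSTRG.33949.1, which lies on the opposite strand. The annotated Krt8 transcripts alone had 21.1, 21.5 and 21.7 FPKM in the control samples and 29.8, 23.0 and 24.6 FPKM in the model samples. With annotated transcripts only, the difference of Krt8 was 0.25 (SE 0.11, 95% interval from -0.03 to 0.52).

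Krt18, the type I partner of Krt8, had 10.8, 9.89 and 13.0 FPKM in the control samples and 16.2, 12.7 and 10.2 FPKM in the model samples. Model 1 was the highest sample, as for Krt8, but model 3 was below controls 1 and 3. The means were 11.2 ± 1.61 and 13.0 ± 3.03 FPKM (SD, n = 3 each), with a difference of 0.18 (SE 0.18, 95% interval from -0.25 to 0.62). The ratio of Krt8 to Krt18 FPKM was 2.24, 2.45 and 1.97 in the control samples and 2.10, 2.17 and 2.54 in the model samples, so that Krt8 exceeded its partner in all 6 samples and the groups overlapped.

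Krt7, a type II keratin of simple and ductal epithelia, had 23.7, 21.3 and 14.8 FPKM in the control samples and 23.3, 31.6 and 19.0 FPKM in the model samples. Model 2 was the highest and control 3 the lowest, and the other samples overlapped. The difference was 0.29 (SE 0.23, 95% interval from -0.27 to 0.84), from means of 19.96 ± 4.59 and 24.6 ± 6.38 FPKM (SD, n = 3).

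Krt19, the smallest keratin, found in many simple epithelia, had 51.0, 40.4 and 37.3 FPKM in the control samples and 53.1, 46.0 and 54.5 FPKM in the model samples. Control 1 was above model 2, so that the groups overlapped. The means were 42.9 ± 7.18 FPKM in control and 51.2 ± 4.54 FPKM in model samples (SD, n = 3), with a difference of 0.26 (SE 0.13, 95% interval from -0.06 to 0.58).

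Sfn, which encodes 14-3-3 sigma, a cell cycle regulator induced by p53, had 2.10, 1.96 and 1.16 FPKM in the control samples and 0.994, 1.40 and 1.27 FPKM in the model samples. Controls 1 and 2 were the highest samples and control 3 lay among the model samples. The difference was -0.29 (SE 0.17, 95% interval from -0.71 to 0.12). The gene is a single annotated exon of 747 bases at chr5:151823887-151824633 in the files' coordinates, and it held between 36.0 and 72.8 estimated reads per library. The 6 other 14-3-3 genes were split into 3 higher and 3 lower with a median difference of -0.01 (1 higher and 5 lower with a median of -0.08 without model 3), and the most abundant, Ywhae, lay between 105 and 136 FPKM.

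Without model 3 the difference of Krt8 was 0.30 (SE 0.11, 95% interval from 0.03 to 0.58). It was 0.34 (SE 0.16) for Krt18, 0.45 (SE 0.23) for Krt7, 0.21 (SE 0.15) for Krt19 and -0.31 (SE 0.21) for Sfn, all with intervals that included 0. None of these passed the call rule, which asks for a 2-fold ratio, and the limma adjusted p was 0.983 for each. Of the pan-epithelial markers, those of epithelium as a whole, 6 of 7 were higher with all samples, with a median difference of 0.08. Their summed level was between 115 and 127 FPKM in control and between 123 and 139 FPKM in model samples. All 6 type 2 cell markers were higher, with a median difference of 0.26 and sums between 4328 and 6027 FPKM in control and between 5106 and 6645 FPKM in model samples. Of the 6 type 1 markers 5 were higher and 1 was lower, with a median of 0.09 and sums between 691 and 883 FPKM in control and between 790 and 908 FPKM in model samples. Without model 3 the median was 0.15 for the pan-epithelial markers, with 7 of 7 higher, 0.21 for the type 2 markers and 0.15 for the type 1 markers. No marker of these lists was called, and their part in the levels of the simple keratins was not tested.

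Mesothelial cells also carry Krt7, Krt8, Krt18 and Krt19. Of the 5 mesothelial markers 2 were higher and 3 were lower, with a median difference of -0.01 (0.12 without model 3, with 4 higher and 1 lower) and sums between 7.15 and 13.3 FPKM in control and between 8.07 and 15.5 FPKM in model samples. Msln, the mesothelin gene, had 2.67, 4.43 and 3.56 FPKM in the control samples and 3.85, 6.02 and 7.11 FPKM in the model samples, and was not called (difference 0.53, SE 0.24, limma adjusted p = 0.933).

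At the level of transcripts, 23 of the 28 were tested with limma and 1 passed the call rule, against 2.98% of all 64867 transcripts tested, and 3 had control and model samples that did not overlap, against 10.4% of all. The called transcript was MSTRG.33950.4, a form of Krt18 assembled from the reads, with 5 exons and 1556 bases at chr7:143630307-143633131. It had 0.194, 0.00310 and 0.000500 FPKM in the control samples and 3.29, 1.42 and 0.764 FPKM in the model samples, so that every model sample was above the highest control. The difference was 1.31 (SE 0.34, 95% interval from 0.48 to 2.14), but the limma adjusted p over all transcripts was 0.945. It starts inside the annotated gene, which begins at 143629455, and ends at the same base as the annotated transcript. The annotated transcript has 7 exons and 1369 bases, so that MSTRG.33950.4, with fewer exons but more bases, includes sequence outside the annotated exons. The source of that sequence was not tested.

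The annotated Krt18 transcript, ENSRNOT00000073951 (chr7:143629455-143633131, 7 exons), had 6.43, 4.81 and 7.25 FPKM in the control samples and 4.63, 4.13 and 6.53 FPKM in the model samples. It went the other way from the gene sum, with a difference of -0.24 (SE 0.20, 95% interval from -0.74 to 0.27). Its share of Krt18 FPKM was 59.7%, 48.6% and 55.7% in the control samples and 28.6%, 32.6% and 64.2% in the model samples, so that the low shares of models 1 and 2 were not shared by model 3.

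The remaining assembled Krt18 transcripts varied between samples without a call. MSTRG.33950.3 had 0.811, 1.82 and 1.14 FPKM in the control samples and 2.80, 3.24 and 0.886 FPKM in the model samples. MSTRG.33950.7 had between 2.52 and 3.24 FPKM in the control samples and 1.23, 3.85 and 0.569 FPKM in the model samples. MSTRG.33950.5 and MSTRG.33950.6 were at or below 0.386 FPKM in all control samples and in model 2, and reached 1.87 and 2.36 FPKM in model 1 and 0.850 and 0.572 FPKM in model 3. MSTRG.33950.1 had 2.04 FPKM in control 3 and at most 0.0275 FPKM elsewhere. Without model 2, MSTRG.33950.5 (difference 1.02), MSTRG.33950.6 (1.07) and MSTRG.33950.7 (-1.01) also passed the call rule, and without model 3 MSTRG.33950.3 did (0.86). The forms overlap along the gene, so that the division of reads among them is an estimate.

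**Figure D4:**
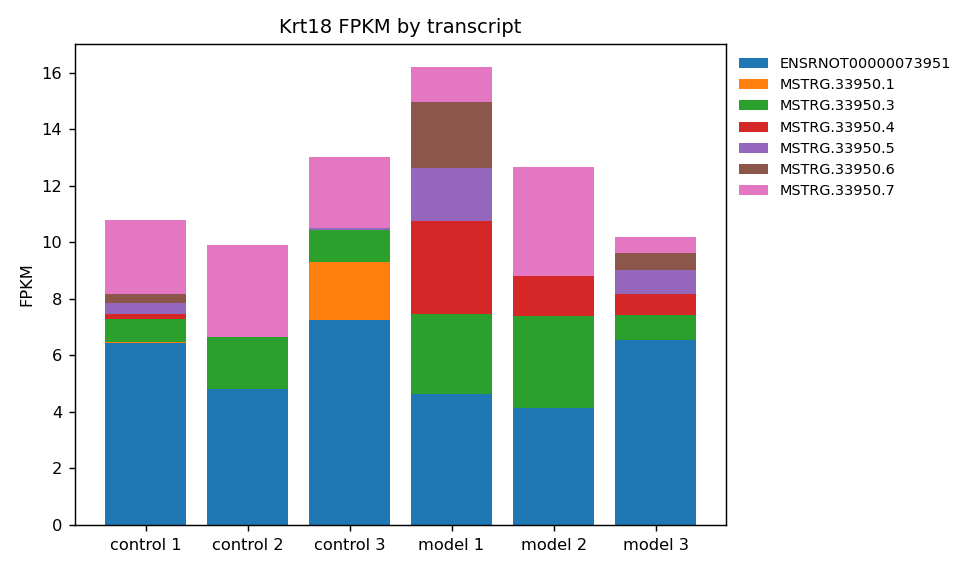
Krt18 FPKM in each sample (vertical axis, from 0), stacked by transcript, with the annotated transcript at the bottom and 6 assembled transcripts above it. The called form MSTRG.33950.4 (red) reached 3.29 FPKM in model 1 and was at most 0.194 FPKM in the control samples, while the annotated form was highest in control 3, at 7.25 FPKM.

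For Krt7 the annotated transcript ENSRNOT00000087481 ranged from 3.24 to 9.17 FPKM in the control samples and from 2.83 to 19.6 FPKM in the model samples, with the extremes in models 1 and 2. The assembled form MSTRG.33927.2 was highest, at 11.7 FPKM, and lowest, at 4.21 FPKM, in the same 2 samples in the opposite order. MSTRG.33927.4, another assembled form, had 5.28, 4.71 and 4.13 FPKM in the control samples and 6.83, 5.65 and 5.38 FPKM in the model samples. Its groups did not overlap, and its difference was 0.28 (SE 0.13, 95% interval from -0.05 to 0.61). MSTRG.33928.1, a transcript of unknown strand just downstream of the gene, had between 0.737 and 2.03 FPKM over all samples.

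Krt8 was carried mainly by the annotated transcript ENSRNOT00000038480 (chr7:143596511-143603803, 9 exons), with 20.4, 20.6 and 20.9 FPKM in the control samples and 29.1, 20.7 and 24.3 FPKM in the model samples. Model 2 lay within the narrow range of the controls, and the difference was 0.24 (SE 0.13, 95% interval from -0.09 to 0.57). A short annotated form, ENSRNOT00000089279, had 2.31 FPKM in model 2 and at most 0.902 FPKM elsewhere. MSTRG.33949.1, which lies inside the gene on the opposite strand, had 3.03, 2.68 and 3.98 FPKM in the control samples and 4.31, 4.52 and 1.23 FPKM in the model samples. Krt19 and Sfn each had 1 transcript, ENSRNOT00000019133 and ENSRNOT00000043959.

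The other genes of the transitional alveolar state were mixed. Of a list of 16, Nupr1 and Sprr1a were not analysed here, and of the 14 tested 8 were higher, 6 were lower and none was called, with a median difference of 0.08 and a range from -0.33 to 0.29. The groups did not overlap for 4 of the 14, against 10.7% of all tested genes, and of these Lgals3 and Ndrg1 were higher and Hbegf and Fhl2 lower in the model samples. Without model 3, 9 were higher and 5 lower, with a median of 0.10. S100a6, a calcium-binding protein gene and the most abundant of the list, had 240, 207 and 202 FPKM in the control samples and 242, 252 and 224 FPKM in the model samples. Clu, the clusterin gene, had 80.4, 95.7 and 88.5 FPKM in the control samples and 67.3, 84.4 and 105 FPKM in the model samples. Of the list, 2 genes, Lgals3 and Fhl2, had an unadjusted p of at most 0.05 (named, like Ndrg1 and Hbegf, after their values were seen), against 4.91% of all tested genes. The galectin gene Lgals3 had 26.3, 21.6 and 26.6 FPKM in the control samples and 28.8, 31.0 and 31.4 FPKM in the model samples (difference 0.29, SE 0.10, limma adjusted p = 0.933). Fhl2, a LIM domain gene, had 6.26, 6.43 and 6.70 FPKM in the control samples and 4.54, 5.41 and 4.88 FPKM in the model samples (difference -0.33, SE 0.10, limma adjusted p = 0.933).

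Genes whose proteins anchor keratin filaments at desmosomes were examined beside the keratins. Of 12, Pkp2 was not analysed here, and of the 11 tested 8 were higher and 3 lower, with a median difference of 0.09 and no call (9 higher and 2 lower with a median of 0.05 without model 3). Jup, the plakoglobin gene, lay between 72.3 and 89.5 FPKM and Plec, the plectin gene, between 26.1 and 29.8 FPKM over all samples.

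Across the keratin family, 30 genes were in the table, 24 were tested, 18 were higher, 6 were lower and none was called. Without model 3, 22 were tested, 12 of them higher and 10 lower. Outside the 8 member keratins, 16 were tested with 10 higher and 6 lower, and the median difference was 0.01. Without model 3, 14 of these were tested with 6 higher and 8 lower, and a median of -0.04. Of a list of 9 keratins of stress, hyperproliferation or differentiation, Krt6a, Krt6b and Krt20 were not analysed here. Of the 5 tested (Krt1, Krt4, Krt10, Krt16 and Krt23) 4 were higher and 1 was lower, with a median of 0.01 (3 higher and 2 lower without model 3). Their highest levels were low, with Krt10, a suprabasal keratin, between 0.660 and 0.913 FPKM and Krt23 between 0.204 and 0.488 FPKM. Krt16 was at most 0.0127 FPKM in any sample.

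The fibrosis genes used as a reference for the model were higher in 7 of 8, with a median difference of 0.17 and no call. Model 3 was the highest library for 5 of the 8, and without it 5 were higher and 3 lower, with a median of 0.04. Col3a1, a fibrillar collagen gene, had 174, 178 and 154 FPKM in the control samples and 189, 204 and 233 FPKM in the model samples (difference 0.30, SE 0.11, limma adjusted p = 0.933). Fn1, the fibronectin gene, had 86.5, 78.5 and 59.9 FPKM in the control samples and 73.9, 76.5 and 98.6 FPKM in the model samples.

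The genes whose pattern over the 6 samples was most like that of Krt5, by the root mean square difference of centred log2(FPKM + 1) among 14307 other genes with a mean of at least 1 FPKM, were AABR07026317.1 (0.0392), Npnt (0.0462) and Plk1 (0.0483). Npnt, the nephronectin gene, had 108 FPKM in model 3 and between 69.3 and 81.1 FPKM elsewhere. For Krt8 they were AC095390.2 (0.0350), Zfand2b (0.0409) and Rassf4 (0.0464), and Zfand2b had 7.87 FPKM in model 1 and between 5.51 and 6.77 FPKM elsewhere. With 6 samples and this many genes, close matches are a description only. The scale also understates the change of a gene as low as Krt5, so that genes with far smaller fold changes, such as Npnt, rank near it.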

How the data were processed

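The authors deposited FPKM per transcript, estimated by StringTie and Ballgown after read trimming (Cutadapt), mapping (Bowtie2, Tophat2) and transcript assembly (StringTie), whereas the submitters' processing notes name HISAT2, StringTie and TopHat. The authors also deposited per-base coverage, a signal not normalized for depth, and counts of back-splice reads of circRNAs from Tophat-fusion and CIRCexplorer. The genome build is not given in the sources used here. Columns of comparisons made by the authors were not used.

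FPKM was summed per gene name. Features above 0 FPKM in at least 3 of 6 samples were tested, two-sided, with limma 3.58.1 (trend) in R 4.3.3 on log2(FPKM + 1) without covariates, over 19645 genes and 64867 transcripts, after a check on simulated data. Rows named for small RNA families held between 34.2% and 46.4% of summed FPKM. Named were all members, their transcripts with a mean of at least 0.1 FPKM, called genes or the 1 or 2 most abundant genes of each other list, and the 3 nearest patterns of Krt5 and Krt8. The members and lists were chosen with earlier results of these data known. Alternatives were another pseudocount, filter, scaling or sum, the replicate block and leaving out each sample.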

Additional observations from a re-analysis of the deposited data

How the results depend on the processing

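No member gene was called under any alternative except without control replicate 2 (Krt14), so that the count of member genes called lay between 0 and 1 when each sample was left out, and that of member transcripts between 1 and 4. It was 4 without model 2 and 2 without model 3. With a filter of mean FPKM of at least 1 the count of member transcripts called was 0, that of all genes called was 84 and that of all transcripts 1066. Under that filter 11 member transcripts were tested, and MSTRG.33950.4, with a mean of 0.946 FPKM, was not among them. With annotated transcripts only, 519 genes were called in place of 298, and the difference of Krt18 turned to -0.24. With a pseudocount of 0.1 the difference of ENSRNOT00000089279 turned to -0.0785. Scaling to TPM changed the calls among all genes from 130 higher and 168 lower to 196 higher and 141 lower, among all transcripts from 794 higher and 1140 lower to 989 higher and 958 lower, and called no member gene, with 2 members, Krt8 and Krt19, at an unadjusted p of at most 0.05. The causes were not tested.

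When each sample was left out, the difference lay from -0.0557 to 0.464 for Krt15 and its transcript ENSRNOT00000019037, from -0.0224 to 0.297 for Krt17 and from -0.00517 to 0.0748 for Tp63. It lay from -0.12 to 0.19 for ENSRNOT00000083895, from -0.33 to 0.32 for MSTRG.33927.2, from -0.46 to 0.76 for ENSRNOT00000087481, from -0.11 to 0.29 for MSTRG.33928.1, from -0.29 to 0.37 for MSTRG.33949.1 and from -0.34 to 0.36 for ENSRNOT00000089279. For Krt19 the difference lay from 0.17 to 0.39, highest without control 1, and for Sfn from -0.45, without control 3, to -0.19. In these fits 1 member had an unadjusted limma p of at most 0.05 without control 1, control 2, control 3 or model 3. Without model 1 or model 2 the count was 0. The form MSTRG.33950.4 was called whichever sample was left out, with a difference from 0.96 to 1.60. Of 390 values of single genes and transcripts under alternatives, 365 kept their direction and side of the call rule, 20 changed direction and 5 became called. The alternatives that changed only the filter, the trend or the block cannot alter a difference. Direction was fixed in advance for those values, so that the count of 365 overstates how stable the differences were.

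Samples with the same replicate number did not deviate together (correlations of 0.065, 0.028 and -0.078). No pairing by number was seen, though so few correlations cannot exclude one. With the replicate block 312 genes and 1943 transcripts were called, no member gene and 1 member transcript among them, and 0 genes had an adjusted p below 0.05 against 2 without it.

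Depth limits the basal genes and Sfn, with at most 94.3 estimated reads for any basal gene in any library (Krt15 in model 3) and at most 72.8 for Sfn.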

Other observations

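Model 3 also held genes of heart muscle, named after their values were seen. Myh6, a cardiac myosin heavy chain gene, had 5.11 FPKM there and at most 0.0339 FPKM elsewhere, Tnnt2, the cardiac troponin T gene, had 4.65 FPKM and at most 0.708 elsewhere, and Mb, the myoglobin gene, had 1.998 FPKM and was listed at 0 elsewhere. Of a list of 8 genes of the proximal airway and glands, added after the data were seen, 4 were in the table and model 3 was the highest library for 1, Bpifb1, with 40.6 FPKM and at most 12.1 elsewhere. Lypd2 was highest in control 2, at 8.80 FPKM, with 7.38 FPKM in model 3, and Ltf and Reg3g were listed at 0 in model 3. Chosen after their values were seen as high in model 3, Clca1 had 17.8 FPKM and at most 2.20 elsewhere, and Gp2 had 12.3 FPKM and at most 1.85 elsewhere. Dolpp1, a gene of dolichol metabolism, was listed at 11920 FPKM in model 3 and at most 2.87 FPKM elsewhere.

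Of 5216 circRNAs, 1 had a member as its host gene. It was the intronic ciRNA30 of Krt18, with 3 back-splice reads in control 1 and 0 in each of the other 5 samples.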
